A study of Mus musculus with 37 samples.

Results

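The genes described here are those carried by the mitochondrial genome of the mouse heart. They were chosen as every row of the deposited expression table whose gene symbol starts with mt-, which gave 37 genes of 56748. The 37 comprise 13 protein genes, 2 ribosomal RNA (rRNA) genes and 22 transfer RNA (tRNA) genes, and they are all of the genes that the table places on the mitochondrial chromosome.

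Bulk RNA was sequenced from the left ventricle of C57BL/6J mice of both sexes aged 8 to 10 weeks, in 37 libraries from 9 groups. Naïve mice (n = 5, labelled as without intervention) received anaesthesia alone. Adr mice (n = 4 at each of 0.5, 1, 3 and 7 days, labelled sham) received 40 µL of saline into the left ventricle and, 8 min later, 500 µL of adrenaline at 15 µg/mL. Arrest mice (n = 4 at each of the same times, labelled cardiac arrest) received 40 µL of 0.5 M KCl, which stops the heart, then the same adrenaline with chest compressions after 8 min of asystole. Adrenaline is therefore shared by both treated arms and absent from the Naïve group, so the Naïve comparisons hold the injection, the adrenaline and, in the Arrest arm, the asystole together, and the Naïve mice had neither the intubation nor the injection of the Adr mice. The apex was discarded and the hearts were flushed before extraction.

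Mitochondria keep a small circular genome of their own. Its protein genes encode subunits of 4 of the complexes that carry out oxidative phosphorylation (complex I, III, IV and V), and its rRNA and tRNA genes serve the ribosomes that translate them inside the organelle. Long transcripts are made from either strand, named heavy and light, and are cut into separate mRNAs, rRNAs and tRNAs, mostly at the tRNAs that lie between the other genes. All other subunits, and the whole apparatus that copies, transcribes and translates this genome, are encoded in the nucleus. Cardiac muscle is among the tissues richest in mitochondria.

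Neighbouring genes on this genome touch or overlap, and 9 pairs share bases. The pair with a result below is mt-Nd5 and mt-Nd6, complex I subunit genes on opposite strands, whose ends share 14 bases at chrM:13552-13565. The last 50 bases of each are shown, 5′ to 3′ on its own strand, with the shared bases in capitals.
mt-Nd5: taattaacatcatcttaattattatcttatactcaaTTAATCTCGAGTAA
mt-Nd6: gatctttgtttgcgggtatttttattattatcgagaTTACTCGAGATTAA
The longest overlap, of 43 bases, joins the ATP synthase (complex V) genes mt-Atp8 and mt-Atp6, read in the same direction. The end of the former and the start of the latter are shown with the shared bases in capitals, because a fragment inside them belongs to both genes.
mt-Atp8: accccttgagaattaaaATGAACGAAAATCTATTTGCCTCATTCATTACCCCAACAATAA
mt-Atp6: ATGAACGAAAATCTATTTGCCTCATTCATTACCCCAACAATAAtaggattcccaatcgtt

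A second feature of the sequence bears on every level given here. The stretch of the mitochondrial genome from base 6381 to base 11042 (4662 bases) is taken here as copied in the nuclear genome. On the minus strand of chromosome 1, 6 annotated genes lie in the same order: Gm29216, Gm28661, Gm10925, Gm28437, Gm28438 and Gm28439. They correspond to mt-Co1 (its last 492 bases), mt-Co2, mt-Atp6, mt-Co3, mt-Nd3 and mt-Nd4 (its first 876 bases). The copies of mt-Co2, mt-Atp6, mt-Co3 and mt-Nd4 matched without a mismatch over 681, 678, 783 and 876 bases. The copy of mt-Nd3 had 1 mismatch over 345 bases and that of mt-Co1 had 6 over 492. The stretch runs from the first to the last aligned base of these 6 genes, and the bases between the genes were not aligned. Of the 37 genes, 11 lie wholly inside the copied stretch (the protein genes mt-Co2, mt-Atp8, mt-Atp6, mt-Co3, mt-Nd3 and mt-Nd4l and 5 tRNA genes), 2 lie partly in it and 24 lie outside. For mt-Atp8, mt-Nd4l and the 5 tRNA genes, most bases were not aligned, and their place inside is inferred from the order. The first 60 bases of mt-Co2 and of its copy Gm28661 (chr1:24614885-24615565 in GRCm38) show why fragments of the pair cannot be told apart.
mt-Co2: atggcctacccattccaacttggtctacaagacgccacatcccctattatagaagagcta
Gm28661: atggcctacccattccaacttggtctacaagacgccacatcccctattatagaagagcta
In mt-Nd3 and its copy Gm28438 the differing base is in capitals (T3C, counted from the first base of mt-Nd3, with the mitochondrial base first).
mt-Nd3: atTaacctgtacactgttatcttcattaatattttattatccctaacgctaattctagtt
Gm28438: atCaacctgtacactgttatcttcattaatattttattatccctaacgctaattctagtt
The copied part of mt-Co1 differs only near its start (T1056A, C1057T, A1059G, A1060G, C1062A and A1066T, in capitals below).
mt-Co1: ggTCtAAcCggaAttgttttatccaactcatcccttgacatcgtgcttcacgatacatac
Gm29216: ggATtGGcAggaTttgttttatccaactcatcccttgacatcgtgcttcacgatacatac
The sequences are those of GENCODE M21 transcripts (GRCm38), whose mitochondrial coordinates equal those of the table for all 37 genes. How the authors' counting treated fragments that fit more than 1 place, and whether it used strand, is not given in the sources used here.

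The deposited values are named FPKM, fragments per kilobase of gene per 1000000 mapped fragments. Levels of different genes in a library can be compared per length. A median-ratio factor over all genes was 1.01 in every library, so the values already held a scaling between libraries. FPKM levels across libraries include that scaling, whereas shares of counted fragments do not. The libraries held between 13197037 and 30179901 counted fragments. All 9 cardiomyocyte markers (Myh6, Tnnt2, Tnni3, Actc1, Myl2, Myl3, Ttn, Ryr2 and Pln) were detected in every library, and the skeletal muscle markers were near 0, with a summed level of at most 4.57 FPKM. The sum of the 3 atrial markers (Myl7, Myl4 and Sln) was 3.03 to 6.93 FPKM in Naïve libraries and 0.608 to 33.6 FPKM in 26 treated ones. It was higher in the 6 others: Adr 1 d replicates 2 (614 FPKM) and 3 (125 FPKM), Adr 3 d replicate 3 (316 FPKM), Adr 7 d replicates 3 (125 FPKM) and 4 (157 FPKM) and Arrest 7 d replicate 2 (201 FPKM). In cardiomyocyte markers Adr 3 d replicate 3 stood apart: its cardiomyocyte marker sum was 3799 FPKM, against 8661 to 18576 in the 36 others, and its fibroblast (1035 FPKM) and macrophage (746 FPKM) marker sums were the highest of all. The study excluded 1 Adr 3-day sample for poor quality, and the labels do not say which. Results are therefore given with and without this library.

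The most abundant transcript of the whole table in Naïve hearts was mt-Co1, which encodes the catalytic subunit of cytochrome c oxidase (complex IV), at 68068 ± 7682 FPKM (SD, n = 5). It was followed by the complex I gene mt-Nd1 (35758 ± 2861 FPKM) and by mt-Cytb (33804 ± 2182 FPKM), the only mitochondrial gene of complex III. Of the complex I genes, mt-Nd2 was next at 22376 ± 4096 FPKM. The others were mt-Nd6 (18710 ± 4217 FPKM), which is the single protein gene on the light strand, mt-Nd4 (16697 ± 1154 FPKM) and mt-Nd5 (13879 ± 2653 FPKM). The order mt-Co1 above mt-Nd1, mt-Cytb above mt-Nd2 and mt-Nd4 above mt-Nd5 held in 37 of 37 libraries. Neighbours that did not separate were mt-Nd1 and mt-Cytb, in that order in 24 of 37 libraries, and mt-Nd6 and mt-Nd4, in that order in 16.

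A wide gap followed. The 6 protein genes wholly inside the copied stretch were listed between 5.34 and 739 FPKM in Naïve hearts, with a median of 294 FPKM, while the 7 others lay between 13879 and 68068 FPKM, with a median of 22376 FPKM. In order, these were mt-Co2 (739 ± 137 FPKM) and mt-Co3 (433 ± 161 FPKM), both core subunits of complex IV, mt-Nd3 (299 ± 39.1 FPKM), mt-Atp6 (288 ± 102 FPKM), mt-Nd4l (165 ± 46.9 FPKM) and mt-Atp8 (5.34 ± 3.24 FPKM). The lowest of the 7, mt-Nd5, exceeded mt-Co2 in 37 of 37 libraries. Neighbours from mt-Co2 down to mt-Nd4l overlapped in their Naïve ranges. Of the fragments assigned to mt-Co2 or Gm28661, the copy held 48.4% ± 8.09 (SD over 37 libraries), of those assigned to mt-Atp6 or Gm10925 48.0% ± 10.1, and of those assigned to mt-Co3 or Gm28437 38.4% ± 10.9. No annotated copy was listed for mt-Atp8 or mt-Nd4l, and what sets the gap between the 6 genes and the 7 others was not tested. For the genes partly inside the stretch, the copy held 0.331% (mt-Co1, with 492 of 1545 bases inside) and 0.395% (mt-Nd4, with 876 of 1378 bases inside).

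**Figure D1:**
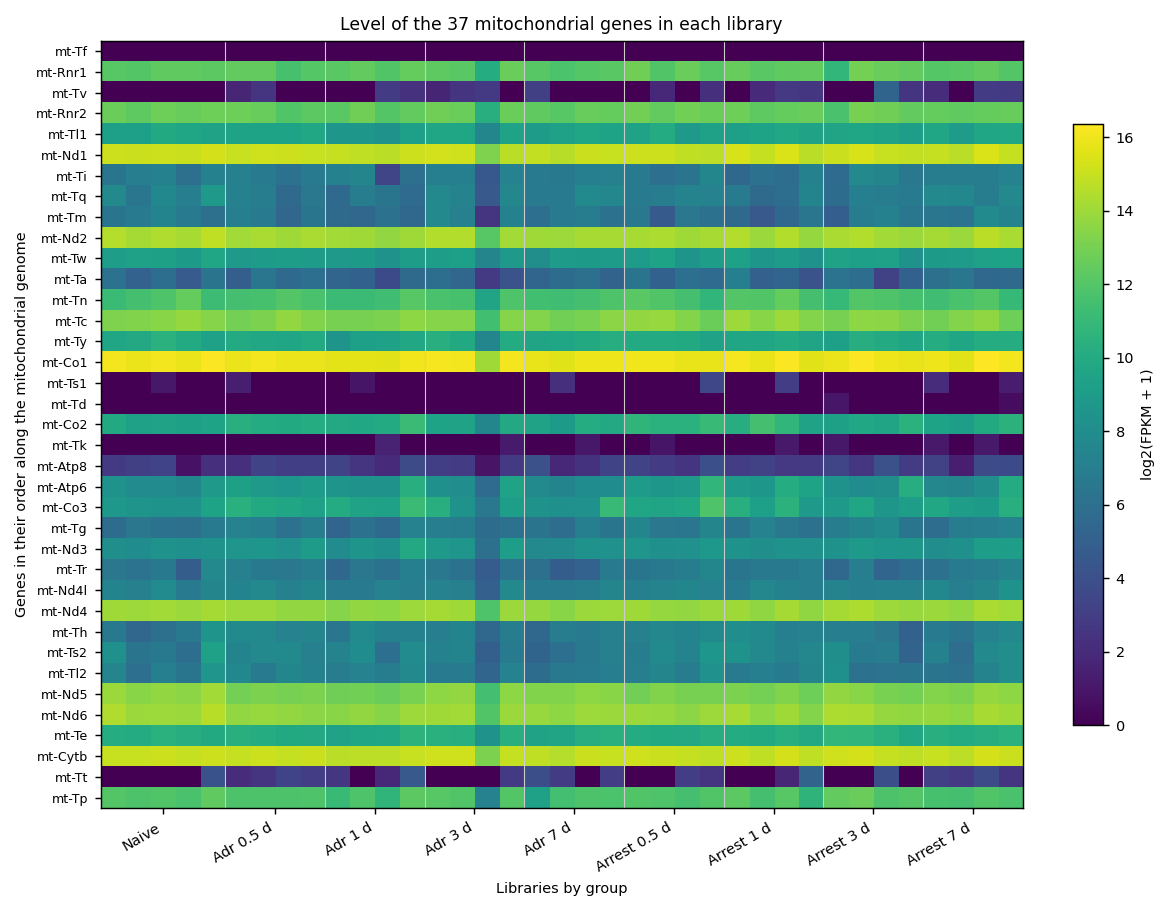
Level of each of the 37 mitochondrial genes, as log2(FPKM + 1), with genes in their order along the mitochondrial genome on the vertical axis and the 37 libraries by group on the horizontal axis. The block from mt-Ts1 to mt-Nd4l, which lies wholly inside the copied stretch, is dark beside mt-Co1 above it and mt-Nd4 below it, and the column of Adr 3 d replicate 3 is darker than its neighbours in 27 genes that have their lowest value there.

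The rRNA genes, mt-Rnr1 (small ribosomal subunit) and mt-Rnr2 (large subunit), were at 4748 ± 532 and 6306 ± 758 FPKM in Naïve hearts. Among the tRNA genes, 16 of 22 had a mean of at least 10 FPKM over all libraries. The highest was mt-Tc, for cysteine, at 11062 ± 1692 FPKM in Naïve hearts, followed by mt-Tp (proline, 4033 ± 764 FPKM), mt-Tn (asparagine, 3426 ± 1403 FPKM), mt-Te (glutamate, 1160 ± 151 FPKM) and mt-Ty (tyrosine, 971 ± 266 FPKM). All 5 lie on the light strand. Next came the heavy-strand genes mt-Tl1 (leucine, 737 ± 156 FPKM) and mt-Tw (tryptophan, 621 ± 112 FPKM). The rest of the 16 had Naïve means from 53.6 FPKM (mt-Ta, alanine) to 238 FPKM (mt-Ts2, serine): mt-Tq (glutamine, 216 FPKM), mt-Tl2 (leucine, 164 FPKM), mt-Th (histidine, 132 FPKM), mt-Ti (isoleucine, 113 FPKM), mt-Tm (methionine, 102 FPKM), mt-Tr (arginine, 97.6 FPKM) and mt-Tg (glycine, 77.2 FPKM). The 8 light-strand tRNA genes held between 83.3% and 93.1% of all tRNA fragments in a library. The other 6 tRNA genes (mt-Tf, mt-Tv, mt-Ts1, mt-Td, mt-Tk and mt-Tt) never exceeded 37.3 FPKM, and mt-Tf had no fragment in any of 37 libraries, where a count of 0 allows up to 1.36 to 3.41 FPKM depending on the library (3 fragments, counting error only). With lengths of 59 to 75 bases, tRNA genes are shorter than a read of this library type, and whether their values count mature tRNAs or longer precursors was not tested.

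Of all counted fragments, the 37 genes took 27.4% ± 2.35 in Naïve hearts (SD, n = 5), with single libraries at 28.0%, 25.2%, 27.3%, 25.3% and 30.9%. The protein genes took 25.8% ± 2.30, the rRNA genes 1.44% ± 0.124 and the tRNA genes 0.155% ± 0.0191. The library selection step is not given in the sources used here. In Adr hearts the same share was 24.7% ± 1.44 (0.5 d), 23.3% ± 1.76 (1 d), 22.8% ± 9.01 (3 d) and 24.3% ± 2.49 (7 d), with 4 libraries each. In Arrest hearts it was 24.9% ± 0.733, 24.6% ± 2.87, 25.9% ± 1.91 and 26.0% ± 3.38 in the same order. Every treated mean was below the Naïve mean, and in all 12 comparisons the libraries of the compared groups overlapped. No p was computed for these shares or for the ratios below.

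**Figure D2:**
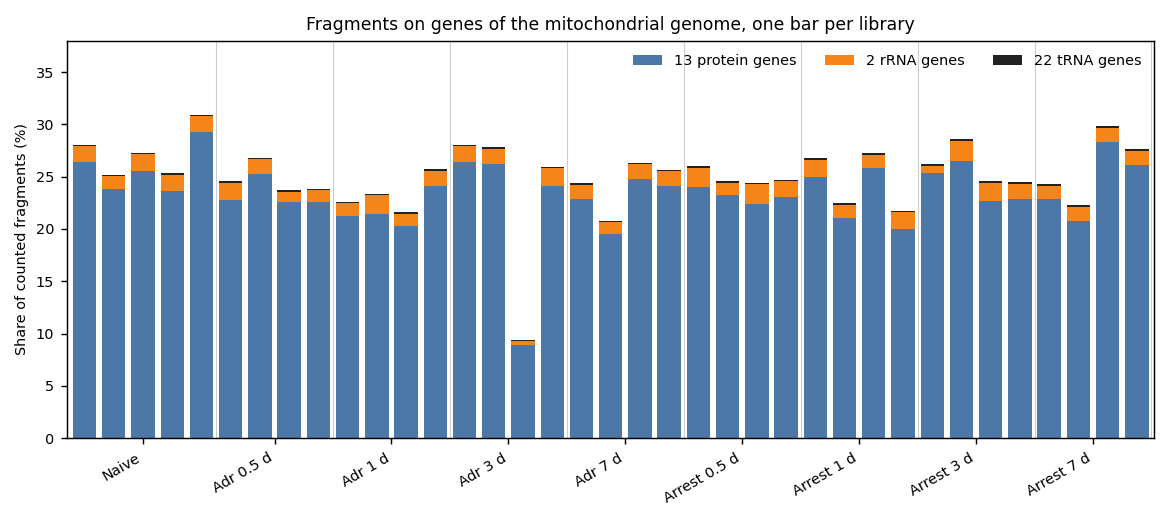
Share of counted fragments, in percent, taken by the 13 protein genes, the 2 rRNA genes and the 22 tRNA genes of the mitochondrial genome in each of the 37 libraries, stacked by class. Adr 3 d replicate 3 is at 9.36% and the 36 others lie between 20.8% and 30.9%.

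Adr 3 d replicate 3 was the library that widened the 3-day Adr spread. Its share was 9.36%, and without it the Adr 3-day group was at 27.3% ± 1.14 (n = 3). All 13 protein genes were lower in it than in the other 3 Adr 3-day libraries, at 12.4% to 28.1% of their mean (median 22.1%), and 12 of the 13 had their lowest value of all 37 libraries there. Its mt-Co1 was at 17122 FPKM, against 68153 to 73394 FPKM in the other 3. These FPKM values include the scaling between libraries. As a share of counted fragments, which does not, the protein genes took 8.88% in this library and 24.1% to 26.4% in the other 3. The 16 better-detected tRNA genes were at 2.95% (mt-Tm) to 51.4% (mt-Tg) of the mean of the other 3. The nuclear genes for respiratory subunits were lower in it as well, 80 of 81 below the mean of the other 3 with a median of 35.2%. The share of all genes that were lower in this library is not given here. These counts therefore do not show what is particular to the mitochondrial or respiratory genes. The depth of this library, 17169619 fragments, was within the range of the others. In bulk tissue, fewer cells of a type and less RNA per cell cannot be told apart, and the part that the low cardiomyocyte marker sum plays in these values was not tested.

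Each treated group was then compared with Naïve hearts, and Arrest with Adr hearts of the same time, by limma on log2(FPKM + 1), with p-values adjusted by the Benjamini-Hochberg method over 16530 genes. Changes below are on that scale, and p-values measure the spread between these libraries. The filter on low values passed 35 of the 37 genes (all except mt-Tf and mt-Td). With all 37 libraries in the model, 0 of the 35 were called at an adjusted p of at most 0.05 in any of the 12 comparisons. Before adjustment, 0 to 4 of the 35 passed 0.05 per comparison. Of all genes tested, 2.52% (Arrest against Adr at 7 days) to 21.7% (Arrest 1 d against Naïve) did so. The percentages of tested genes called against Naïve were 0.188% (Adr 0.5 d), 0.69% (Adr 1 d), 0% (Adr 3 d), 0% (Adr 7 d), 3.21% (Arrest 0.5 d), 7.11% (Arrest 1 d), 0.139% (Arrest 3 d) and 0% (Arrest 7 d). For Arrest against Adr they were 0%, 0% and 0% at 0.5, 1 and 3 days and 0.00605% at 7 days.

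Leaving Adr 3 d replicate 3 out of the model lowered the pooled spread of the abundant mitochondrial mRNAs. The residual SD of mt-Nd5 went from 0.42 to 0.22 and that of mt-Co1 from 0.38 to 0.19 on the log2 scale, while that of the median gene went from 0.30 to 0.28. The percentages called among all genes were then 1.35%, 2.52%, 0% and 0% in the Adr arm (0.5, 1, 3 and 7 days against Naïve), 5.51%, 10.3%, 1.13% and 0% in the Arrest arm, and 0%, 0%, 0% and 0% for Arrest against Adr. In this model 1 mitochondrial gene of 35 was called at Adr 0.5 d, 3 at Adr 1 d, 2 at Arrest 0.5 d, 1 at Arrest 1 d and 0 elsewhere. Counts this small do not set the mitochondrial genes apart from the percentages over all genes. The called genes were mt-Nd5 in all 4 of these comparisons, mt-Tl1 and mt-Tq at Adr 1 d, and mt-Co2 at Arrest 0.5 d.

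**Figure D3:**
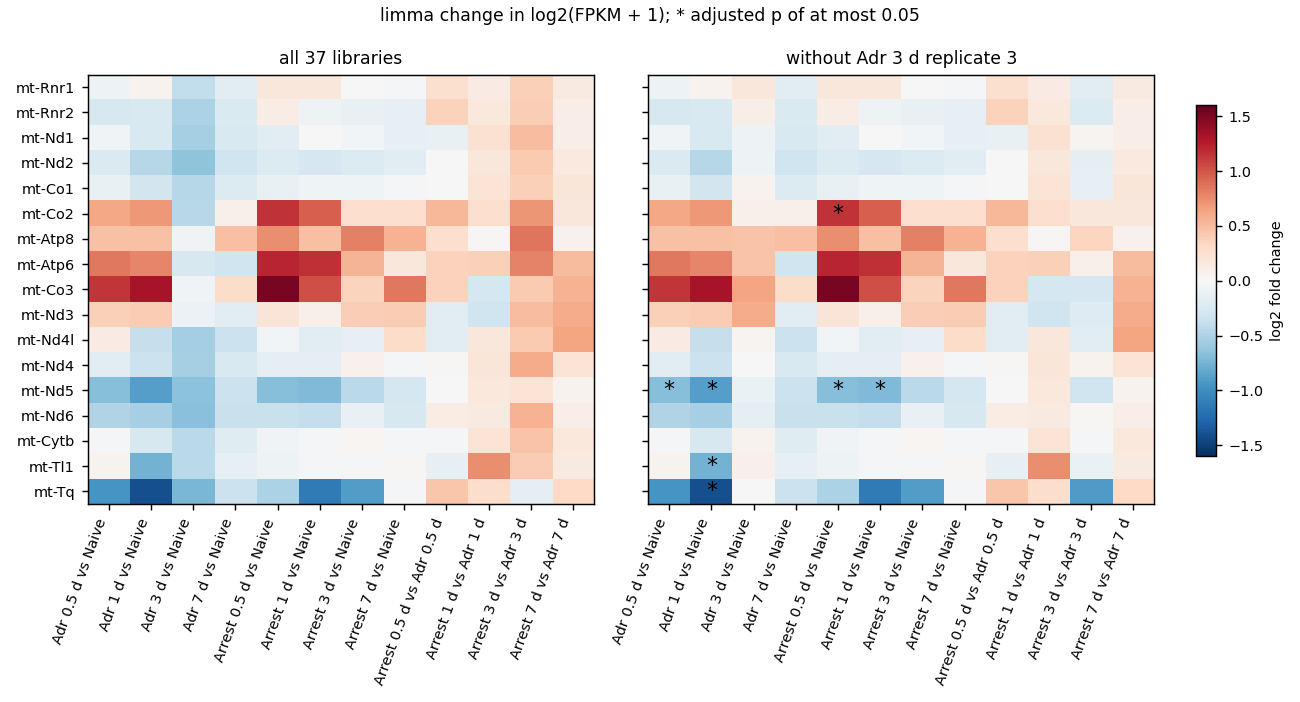
Change in log2(FPKM + 1) by limma for the 15 protein and rRNA genes and for mt-Tl1 and mt-Tq (rows) in the 12 comparisons (columns), with all 37 libraries (left) and without Adr 3 d replicate 3 (right). Stars mark an adjusted p of at most 0.05: there are none on the left, and on the right mt-Nd5 carries 4 of them.

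The gene mt-Nd5 (ENSMUSG00000064367, chrM:11742-13565, plus strand, 1824 bases) encodes a large membrane subunit of complex I that takes part in proton pumping. It was at 15330, 11158, 13246, 11964 and 17697 FPKM in the Naïve libraries. In Adr hearts it was at 7771, 9231, 8166 and 8984 FPKM at 0.5 days and at 7231, 7618, 6435 and 8586 FPKM at 1 day. In Arrest hearts it was at 7427, 10026, 8379 and 8443 FPKM at 0.5 days and at 9109, 7890, 9747 and 6981 FPKM at 1 day. All 16 of these early libraries lay below all 5 Naïve libraries. Adr 3 d replicate 3 is in none of these groups, so leaving it out cannot change this. The share of all genes tested that separate from Naïve in this way is not given here. Before adjustment, 14% (Adr 0.5 d) to 21.7% (Arrest 1 d) of them passed in these early comparisons, in either direction, with all libraries. The separation alone therefore does not set mt-Nd5 apart. The number of genes with a value above 0 moved with some of these groups: it was 13475 to 16925 in Naïve libraries, 18496 to 21377 at Adr 0.5 d and 17081 to 20435 at Arrest 0.5 d, without overlap, while Adr 1 d (16623 to 21356) and Arrest 1 d (16812 to 18436) overlapped with Naïve. At Arrest 7 d, where mt-Nd5 overlapped with Naïve, this number was 17252 to 21269, also without overlap. The part of this number in the values of mt-Nd5 was not tested. By 3 and 7 days the groups overlapped with Naïve: Adr 7-day hearts were at 9729, 9859, 12416 and 11462 FPKM, Arrest 3-day hearts at 13679, 11061, 8791 and 7968 FPKM and Arrest 7-day hearts at 10368, 9012, 14124 and 12157 FPKM. Of the Adr 3-day hearts, 3 were at 12208, 13410 and 12464 FPKM and replicate 3 was at 2810 FPKM.

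Without that replicate, mt-Nd5 fell at 0.5 days by 0.68 (SE 0.16, limma adjusted p = 0.0229) and at 1 day by 0.88 (SE 0.16, limma adjusted p = 0.0028) in Adr hearts. In Arrest hearts it fell by 0.68 (SE 0.16, limma adjusted p = 0.00943) and 0.71 (SE 0.16, limma adjusted p = 0.0035). The same changes had an SE of 0.29 with all libraries and limma adjusted p-values of 0.274, 0.137, 0.196 and 0.133. At 3 and 7 days its changes were -0.11 and -0.34 in Adr hearts and -0.43 and -0.28 in Arrest hearts, and none was called. The call at 0.5 days in Adr hearts rested on single libraries: of the 9 fits that left out a further library, it was lost in the 5 without Adr 0.5 d replicate 1, 3 or 4 or Naïve replicate 1 or 5, with limma adjusted p up to 0.0873. In the other 3 early comparisons all 9 such fits kept mt-Nd5. Of 12 other ways of processing, 8, 8, 9 and 8 kept the call at Adr 0.5 d, Adr 1 d, Arrest 0.5 d and Arrest 1 d. The 12 include the values as deposited, which differ from the main input only by the constant factor of 1.01. That setting was near certain to keep each call, here and for mt-Co2, mt-Tl1 and mt-Tq below. Quantile normalization, which gives every library the same set of values, ended all 4 calls, with changes of -0.28, -0.28, -0.42 and -0.34. A gene then takes the value of its rank, and mt-Nd5 ranked 8 in the whole table in Naïve hearts. Its change could only be a gap between top ranks, and was -0.28 at both Adr times, so this setting cannot decide the calls. All 4 calls were also lost with no filter on low values (limma adjusted p = 0.218, 0.0720, 0.141 and 0.0937). They were lost too with only the compared groups in the model (limma adjusted p = 0.123, 0.121, 0.118 and 0.0771). Both 1-day calls were lost with the number in the sample description as a covariate (limma adjusted p = 0.105 and 0.196). This number is higher in every Naïve library than in any 1-day library. What it stands for and the treatment therefore cannot be told apart in these comparisons. Arrest and Adr hearts did not separate in mt-Nd5, with differences of 0.00 at 0.5 days and 0.17 at 1 day (SE 0.16, Arrest minus Adr, limma adjusted p of 1 and 0.819, without the same library).

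The other abundant heavy-strand mRNAs had smaller changes in these 4 comparisons. A ratio within a library does not depend on scaling, so mt-Nd5 was set against 5 of them (mt-Nd1, mt-Nd2, mt-Co1, mt-Nd4 and mt-Cytb), a ratio chosen after the values of mt-Nd5 were seen and given as a description. The log2 ratio of fragments was -3.16 ± 0.15 in Naïve hearts, -3.74 ± 0.074 and -3.75 ± 0.066 in Adr hearts at 0.5 and 1 days, and -3.72 ± 0.22 and -3.79 ± 0.083 in Arrest hearts. The 4 early groups did not overlap with Naïve. The 3- and 7-day groups of both arms were between -3.27 and -3.54 on average and overlapped with Naïve, where the lowest library was at -3.33. Many of their libraries still lay below it. Arrest libraries were at -3.11, -3.69, -3.68 and -3.69 at 3 days and at -3.43, -3.37, -3.42 and -3.31 at 7 days. Adr libraries were at -3.45, -3.26, -3.45 and -3.17 at 3 days and at -3.40, -3.14, -3.22 and -3.32 at 7 days. The light-strand gene mt-Nd6, whose end overlaps that of mt-Nd5 as shown above, had changes of -0.48, -0.53, -0.36 and -0.38 in the same 4 comparisons, which were not called (limma adjusted p from 0.113 to 0.264 without Adr 3 d replicate 3). Its log2 ratio to the summed heavy-strand mRNAs was -4.71 ± 0.19 in Naïve and -5.04 ± 0.12 in Adr 0.5-day hearts, which did not overlap. In the other 3 early groups this ratio was between -4.90 and -4.96 and overlapped with Naïve.

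**Figure D4:**
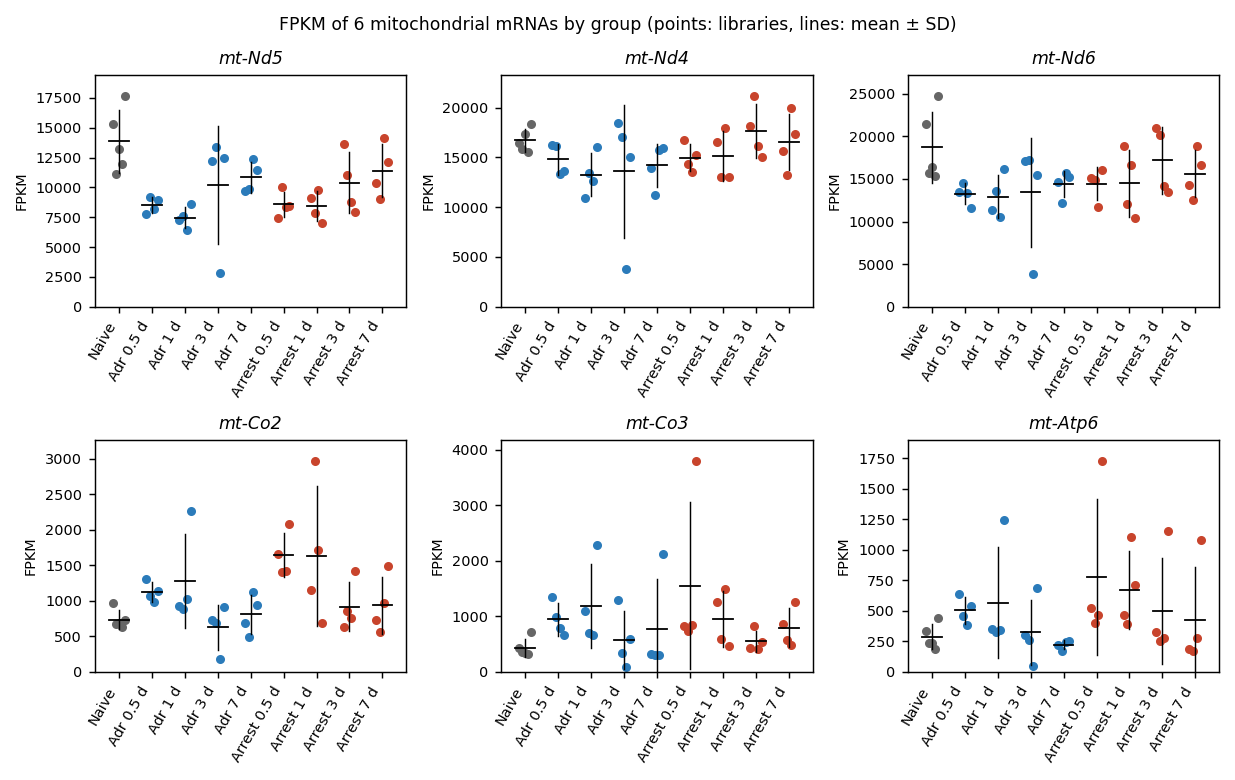
FPKM of mt-Nd5, mt-Nd4, mt-Nd6, mt-Co2, mt-Co3 and mt-Atp6 in the 9 groups, with 1 point per library and lines for the mean ± SD. For mt-Nd5 the 16 Adr and Arrest libraries of 0.5 and 1 days lie at 6435 to 10026 FPKM and the 5 Naïve libraries at 11158 to 17697 FPKM, while single libraries carry much of the spread of mt-Co3 and mt-Atp6.

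Among the remaining abundant mRNAs, mt-Nd2 was lower in all 4 Adr 1-day libraries than in any Naïve library, with a change of -0.46 (SE 0.17, limma adjusted p = 0.134 without Adr 3 d replicate 3). Changes of mt-Nd1, mt-Co1, mt-Cytb and mt-Nd4 were not called in any comparison. With all libraries, all 7 abundant mRNAs had a negative change in each comparison with Naïve except Arrest 3 d (5 of 7), and without Adr 3 d replicate 3 the count at Adr 3 d was 4 of 7. Their median change was -0.17 at Adr 0.5 d, -0.34 at Adr 1 d, -0.17 at Arrest 0.5 d and -0.15 at Arrest 1 d, where the medians over all genes tested were 0.04, 0.04, 0.03 and 0.03. The rRNA genes gave no call in any comparison. The log2 ratio of rRNA to mRNA fragments overlapped between groups in all 12 comparisons, from -4.17 ± 0.13 in Naïve hearts to -3.86 ± 0.32 at Arrest 0.5 d, the group farthest from it.

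The mRNAs inside the copied stretch leaned the other way. Of the 6, mt-Co2, mt-Atp8, mt-Atp6, mt-Co3 and mt-Nd3 had positive changes in the 4 early comparisons, and the median over the 6 was 0.54, 0.58, 0.95 and 0.72 at Adr 0.5 d, Adr 1 d, Arrest 0.5 d and Arrest 1 d. The gene that passed the test was mt-Co2 (ENSMUSG00000064354, chrM:7013-7696, plus strand). It was at 975, 671, 692, 628 and 727 FPKM in Naïve hearts and at 1664, 1407, 1428 and 2079 FPKM at Arrest 0.5 d. These groups did not overlap, nor did Arrest and Adr hearts at 0.5 days, where Adr libraries were at 1306, 1077, 985 and 1135 FPKM and also above all Naïve libraries. At Arrest 0.5 d mt-Co2 rose by 1.15 (SE 0.32, limma adjusted p = 0.0293) without Adr 3 d replicate 3, and the value with all libraries was limma adjusted p = 0.0924. The call was lost (limma adjusted p up to 0.0827) in 6 of the 9 fits that left out a further library, those without Arrest 0.5 d replicate 1, 2 or 4 or Naïve replicate 2, 4 or 5. Of 12 other ways of processing, 7 kept it, with limma adjusted p up to 0.0989. At Arrest 1 d its change was 0.96 (limma adjusted p = 0.0512 without that replicate), with libraries at 1160, 2973, 1716 and 689 FPKM.

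Because the copy of mt-Co2 is identical over 681 bases, the pair was also counted together. The sum for mt-Co2 and Gm28661 was 1003 ± 83.4 fragments per 1000000 in Naïve hearts and 1818 ± 309 at Arrest 0.5 d, which is 1.81 times the Naïve mean, while mt-Co2 alone was 2.23 times its Naïve mean. The copy held 50.4% ± 5.06 of these fragments in Naïve hearts and 37.9% ± 5.75 at Arrest 0.5 d. The summed libraries at Arrest 0.5 d, Adr 0.5 d and Adr 1 d lay above all Naïve libraries, and those at Arrest 1 d overlapped. With the copy counted, Arrest 0.5 d (1506 to 2160 per 1000000) and Adr 0.5 d (1358 to 1744 per 1000000) overlapped, unlike mt-Co2 alone. For mt-Co3 with Gm28437 the sum was 581 ± 195 per 1000000 in Naïve hearts and 1151 ± 235, 1569 ± 764, 1700 ± 1281 and 1120 ± 362 at Adr 0.5 d, Adr 1 d, Arrest 0.5 d and Arrest 1 d, the first 3 without overlap. Of the copies themselves, Gm28437 was called higher at Adr 1 d, Arrest 0.5 d and Arrest 1 d, with changes of 1.15, 0.90 and 0.85 (limma adjusted p = 0.0202, 0.0395 and 0.0368), and Gm10925 at Arrest 0.5 d with a change of 0.90 (limma adjusted p = 0.0183), all without Adr 3 d replicate 3. Whether the fragments came from mitochondrial or nuclear transcripts cannot be told apart for identical stretches.

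Single libraries weighed heavily on mt-Co3 and mt-Atp6. At Arrest 0.5 d mt-Co3 was at 823, 743 and 848 FPKM in 3 libraries and at 3802 FPKM in replicate 4. In the same group mt-Atp6 was at 521, 397 and 464 FPKM, and at 1727 FPKM in replicate 4. At Adr 7 d mt-Co3 was at 330, 299 and 313 FPKM, and at 2118 FPKM in replicate 4. The replicate 4 library was the highest of its group in 6 of 8 treated groups for mt-Atp6, in 5 for mt-Co2, in 4 each for mt-Co3 and mt-Nd3, in 3 for mt-Nd4l and in 2 for mt-Atp8. The count of mt-Atp8 is an even spread, with 2 groups for each replicate number. Replicate 4 was highest in 1 group each for mt-Co1 and mt-Nd5 and in 2 to 5 for the 6 nuclear copies. The share over all genes is not given here, so the lower counts set no gene apart. The 5 libraries with over 20000000 counted fragments were all replicate 4, and mt-Atp6 was at 685 to 1727 FPKM in them and at 51.7 to 1102 FPKM in the 32 others. The part of depth in these levels was not tested.

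The gene mt-Nd3, a small complex I subunit, showed a different pattern in its pair. Its copy Gm28438 differs at the single base shown above, and held 9.79% to 31.6% of the fragments of the pair in 32 libraries. In the 5 others, which were Adr 0.5 d replicate 3, Arrest 0.5 d replicate 3, Arrest 1 d replicate 1 and Arrest 7 d replicates 1 and 3, it held 68.3% to 87.1%. Gm28438 was at 1088 to 2205 FPKM in these 5 and at 14.2 to 139 FPKM in the 32 others, with no value between. The level listed for mt-Nd3 itself did not set these 5 apart, at 258 to 562 FPKM. The 5 libraries came from 4 groups and none was Naïve, and what distinguishes them was not tested.

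The tRNA genes gave calls only at Adr 1 d, in the model without Adr 3 d replicate 3. The genes are shown whole because their length sets what a read can cover, together with mt-Tc, the most abundant tRNA gene.
mt-Tl1: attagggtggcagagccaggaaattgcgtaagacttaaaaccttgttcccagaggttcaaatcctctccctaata
mt-Tq: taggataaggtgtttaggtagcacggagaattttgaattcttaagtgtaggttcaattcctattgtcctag
mt-Tc: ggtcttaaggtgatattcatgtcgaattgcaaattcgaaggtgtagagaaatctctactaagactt
The gene mt-Tl1 (chrM:2676-2750, plus strand), for leucine, lies between mt-Rnr2 and mt-Nd1. It was at 609, 600, 975, 802 and 699 FPKM in Naïve hearts and at 397, 402, 338 and 614 FPKM at Adr 1 d. Replicate 4 lay within the Naïve range and the other 3 below it, and the gene fell by 0.76 (SE 0.20, limma adjusted p = 0.0361). At Arrest 1 d it was at 609, 735, 873 and 681 FPKM, and the difference between Arrest and Adr hearts at 1 day was 0.75 (SE 0.21, Arrest minus Adr, limma adjusted p = 0.321).

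The gene mt-Tq (chrM:3772-3842, minus strand), for glutamine, shares 3 bases with mt-Ti on the other strand. It was at 209, 86.9, 199, 130 and 457 FPKM in Naïve hearts and at 46.9, 119, 79.5 and 50.8 FPKM at Adr 1 d, where 3 of 4 libraries lay below all Naïve libraries. It fell by 1.41 (SE 0.39, limma adjusted p = 0.0463). Its change at Arrest 1 d was -1.13 (limma adjusted p = 0.0583), with libraries from 50.1 to 164 FPKM. Both calls at Adr 1 d were lost in 6 of the 9 fits that left out a further library. For mt-Tl1 the call held only without Adr 1 d replicate 4 or Naïve replicate 1 or 2, and for mt-Tq only without Adr 1 d replicate 2 or Naïve replicate 2 or 4. Over these fits the change of mt-Tl1 ran from -0.94 to -0.65 (limma adjusted p up to 0.139) and that of mt-Tq from -1.68 to -1.08 (limma adjusted p up to 0.125). Of 12 other ways of processing, 7 kept the call of mt-Tl1 and 6 that of mt-Tq, with limma adjusted p up to 0.364 and 0.394. Both were lost with no filter on low values, with the number in the sample description as a covariate and with only the compared groups in the model. As stated for mt-Nd5, that number does not overlap between Adr 1 d and Naïve. Fibroblast marker sums at Adr 1 d (297 to 402 FPKM) lay above those of Naïve libraries (215 to 280 FPKM), and atrial markers were high in replicates 2 and 3 of that group. Their part in the calls at Adr 1 d, that of mt-Nd5 included, was not tested. The log2 ratio of tRNA to mRNA fragments overlapped between groups in all 12 comparisons.

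Mitochondrially encoded subunits work in complexes with nuclear-encoded partners, so the 13 mitochondrial mRNAs were set against 81 nuclear genes for subunits of complexes I to V. The log2 ratio of their fragments was 2.62 ± 0.20 in Naïve hearts, with libraries from 2.44 to 2.92. It was 2.19 ± 0.10 and 2.10 ± 0.12 at 0.5 and 1 days in Adr hearts and 2.19 ± 0.11 and 2.03 ± 0.21 in Arrest hearts, and these 4 groups did not overlap with Naïve. The differences from Naïve were -0.43, -0.52, -0.43 and -0.59. This rested on summing fragments, where the most abundant mRNAs weigh most: with the log2 values averaged over genes instead, the differences were -0.23, -0.22, -0.09 and -0.38, and all 4 groups overlapped with Naïve. At 3 and 7 days the ratio of summed fragments was between 2.42 and 2.52 on average and overlapped. The nuclear side moved too: the 81 genes held 4.18% ± 0.225 of fragments in Naïve hearts and 5.11% ± 0.175, 5.09% ± 0.482, 5.09% ± 0.486 and 5.60% ± 0.317 in the same 4 early groups. In the model without Adr 3 d replicate 3, 15, 13, 18 and 49 of the 81 were called higher in those comparisons and none lower, where 0.641%, 1.26%, 3.01% and 5.72% of all genes tested were called higher. With all libraries the counts were 0, 0, 3 and 21, beside 0.0786%, 0.375%, 1.75% and 3.88% of all genes. The 13 mitochondrial mRNAs gave 0 calls higher at Adr 0.5 d, Adr 1 d and Arrest 1 d, and 1, mt-Co2, at Arrest 0.5 d.

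Gene length moved with these groups. The trend of log2 level with gene length over nuclear genes was 0.058 ± 0.014 per doubling of length in Naïve hearts, and -0.035, -0.026 and 0.012 at 0.5, 1 and 3 days in Adr hearts and -0.025, -0.046 and 0.002 in Arrest hearts, all without overlap with Naïve. The 81 nuclear respiratory genes had a median of 1675 bases in length, against 3480 bases for all genes tested, and 72.5% of genes tested are longer than mt-Nd5. When the trend was removed from every library, mt-Nd5 changes were larger, from -0.84 to -1.04 in the 4 early comparisons, and all 4 were called without Adr 3 d replicate 3. This was not particular to mt-Nd5. In that model the median change of the 13 mitochondrial mRNAs went from -0.02, -0.25, -0.05 and -0.03 to -0.24, -0.45, -0.28 and -0.29 (Adr 0.5 d, Adr 1 d, Arrest 0.5 d and Arrest 1 d). Of the 13, 1, 3, 1 and 3 were then called lower. The counts of nuclear respiratory genes called higher went down to 4, 3, 10 and 28. The change of mt-Co2 at Arrest 0.5 d was then 0.91 and was not called (limma adjusted p = 0.0989).

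**Figure D5:**
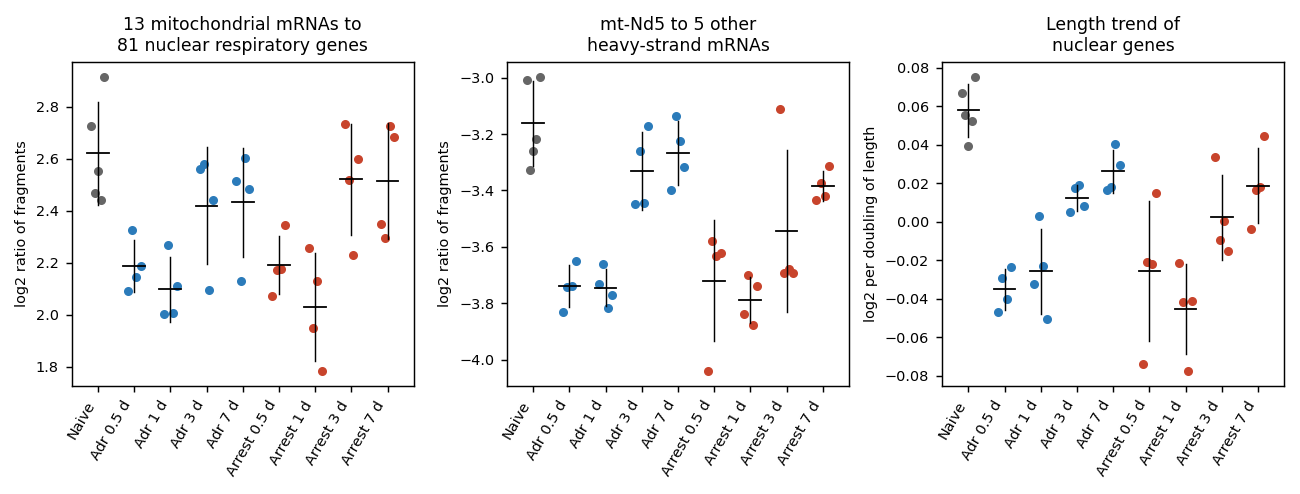
For each library by group: the log2 ratio of fragments on the 13 mitochondrial mRNAs to those on 81 nuclear respiratory genes (left), the log2 ratio of mt-Nd5 to 5 other heavy-strand mRNAs (middle) and the trend of log2 level per doubling of gene length over nuclear genes (right), with lines for the mean ± SD. In all 3 panels the 0.5- and 1-day groups of both arms lie below the Naïve libraries, which for the left panel holds for summed fragments and not for log2 values averaged over genes.

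The nuclear genes that serve the mitochondrial genome were listed in 4 groups of 79 tested genes in all: transcription and replication (17), RNA processing and turnover (30), aminoacyl-tRNA synthetases (22) and translation factors (10). With all libraries 1 of the 79 was called, Aars2, the alanyl-tRNA synthetase, which fell by 0.69 at Arrest 0.5 d (SE 0.18, limma adjusted p = 0.0265), where 3.21% of all genes were called. Without Adr 3 d replicate 3, Mars2 (methionyl-tRNA synthetase) fell by 0.49 at Adr 1 d and by 0.42 at Arrest 1 d, and Gfm1, an elongation factor, fell by 0.39 at Adr 1 d and by 0.42 at Arrest 3 d. In the same model Ssbp1, which binds single-stranded mitochondrial DNA, rose by 0.42, and Hsd17b10, a subunit of the enzyme that cuts the 5′ ends of tRNAs, rose by 0.61, both at Arrest 1 d. The limma adjusted p-values of these 6 calls were 0.0318, 0.0301, 0.0476, 0.0488, 0.0412 and 0.00651 in that order, and Aars2 was called at Arrest 0.5 d in this model too. Of the 79, then, 2 were called at Adr 1 d, 1 at Arrest 0.5 d, 3 at Arrest 1 d and 1 at Arrest 3 d, where 2.52%, 5.51%, 10.3% and 1.13% of all genes were called. The counts do not set these lists apart from all genes. Polrmt (the mitochondrial RNA polymerase), Tfam (which packages the genome and starts its transcription) and Lrpprc (which stabilises mitochondrial mRNAs) were not called in any comparison in either model. Their changes lay from -0.33 to 0.14, from -0.25 to 0.07 and, with all libraries, from -0.61 to 0.20.

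Arrest and Adr hearts of the same time were also compared, arms that share the adrenaline and differ in the KCl, the asystole and the compressions. No mitochondrial gene was called at any time in either model. All 13 protein genes had a positive difference (Arrest minus Adr) at 7 days, with a median of 0.18, and 11 of 13 at 1 day, with a median of 0.19, where the medians over all genes were 0.00 and 0.00. At 3 days the 13 had a median of 0.49 with all libraries and of -0.03 without Adr 3 d replicate 3, so the sign there rested on that library. The mitochondrial share was 24.6% ± 2.87 in Arrest against 23.3% ± 1.76 in Adr hearts at 1 day and 26.0% ± 3.38 against 24.3% ± 2.49 at 7 days, with overlapping libraries.

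Within groups, the abundant mRNAs varied together. After subtraction of each group's mean, the median Pearson correlation across the 36 libraries without Adr 3 d replicate 3 was 0.80 for the 21 pairs of the 7 abundant mRNAs, 0.38 for the 15 pairs of mRNAs inside the copied stretch and 0.27 for the 42 pairs between the 2 kinds. With all 37 libraries these were 0.94, 0.60 and 0.59. The points share a library, its depth and its scaling, and the values are a description. The gene closest to mt-Nd5 was mt-Nd2 (r = 0.83 without Adr 3 d replicate 3), followed by mt-Nd6 (r = 0.82). The mitochondrial share followed the cardiomyocyte marker sum with r = 0.60 and rho = 0.33 over 37 libraries and with r = 0.26 and rho = 0.26 without Adr 3 d replicate 3, so the larger value rested on that library.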

How the data were processed

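Left ventricular RNA was sequenced by the authors in 37 libraries as paired-end reads, aligned with HISAT2 and, per the study's methods, analysed with DESeq2. What the authors deposited is a single table with 56748 genes in rows and FPKM of each library in columns. The build, annotation, strand setting, counting tool and treatment of multiply mapped reads are not given in the sources used here. The mitochondrial coordinates in the table equal those of GENCODE M21 for 37 of 37 genes, and sequences were read from its transcripts. Multiplying FPKM by length gave whole fragments in 100% of values (tolerance 0.01), from which fragments per library (13197037 to 30179901) and shares were computed. Intervals and floors cover counting error only.

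Groups came from the sample labels. Values were rescaled by a median-ratio factor over all genes, which was 1.01 in every library, so the scaling between libraries stayed as deposited. The log2(FPKM + 1) values were tested with limma 3.58.1 in R 4.3.3 (moderated, with a mean-variance trend). The test covered the 16530 genes that reached 0.5 FPKM in 4 or more libraries. All 9 groups shared 1 estimate of the spread. Calls needed a Benjamini-Hochberg adjusted p of at most 0.05 over all genes tested. The model without Adr 3 d replicate 3 was added after the data were seen. The step was tested on simulated data with known changes. Shares and ratios carry no p, although permutation tests had been planned for them. Python 3.11.15 with numpy 2.4.6, pandas 2.3.3, scipy 1.17.1 and matplotlib 3.10.9 was used for the rest.

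The members and the gene lists were chosen with earlier results of these data known. All 37 mitochondrial genes are described. Those given in full are the called ones, those whose libraries do not overlap with Naïve and the copied genes with single high libraries, the last chosen after their values were seen. The labels do not say whether replicates of a group are separate animals in every case, so p-values measure the spread between libraries. Within groups, no library repeated another: chi-square per degree of freedom ran from 11.7 to 391 over 58 replicate pairs. Libraries of different groups were not compared in this way.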

Additional observations from a re-analysis of the deposited data

Results flagged for a closer look

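Among groups of 4 or 5 libraries, 21 of 207 sets of values held a library set apart from the rest by a gap larger than the critical value of Dixon's test, where about 1 in 20, or 10.35, would be flagged by chance. Of the 21, 7 were in Adr 3 d replicate 3. In that library mt-Rnr2 was at 1260 FPKM (others of the group 6267 to 7149), mt-Co1 at 17122 FPKM, mt-Nd5 at 2810 FPKM and mt-Nd6 at 3825 FPKM (others 15500.5 to 17282 for mt-Nd6). Its mitochondrial share was 9.36%, its mRNA share 8.88% and its tRNA share 0.0449%. Its cardiomyocyte marker sum was the lowest and its fibroblast and macrophage sums the highest of all libraries, and their part in these values was not tested.

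Of the other 14, 9 were high values of genes inside the copied stretch. For mt-Atp6 these were 1244 FPKM in Adr 1 d replicate 4 (others 329 to 352), 1727 FPKM in Arrest 0.5 d replicate 4, 1151 FPKM in Arrest 3 d replicate 4 and 1076 FPKM in Arrest 7 d replicate 4. For mt-Co3 they were 713 FPKM in Naïve replicate 5, 2118 FPKM in Adr 7 d replicate 4 and 3802 FPKM in Arrest 0.5 d replicate 4. For mt-Co2 they were 975 FPKM in Naïve replicate 1 and 2265 FPKM in Adr 1 d replicate 4.

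The remaining 5 were spread over other measures. In Adr 1 d replicate 3 mt-Nd2 was at 13336 FPKM, against 17007 to 17263 FPKM in the rest of its group. The mRNA share was 25.2% in Adr 0.5 d replicate 2 and the rRNA share 1.12% in Adr 7 d replicate 2. The log2 ratio of rRNA to mRNA was -5.18 in Arrest 3 d replicate 1, and the log2 ratio of mt-Nd6 to the heavy-strand mRNAs was -4.71 in Arrest 1 d replicate 1.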

How the results depend on the processing

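With all libraries, 247 of 260 recomputed counts of called mitochondrial genes equalled the value given (0 in each comparison), under other scalings, pseudocounts, filters, the replicate block (0 calls) and leave-outs. The exceptions were sample quality weights (1 at Adr 0.5 d, 1 at Adr 1 d, 1 at Arrest 0.5 d and 3 at Arrest 1 d), quantile normalization (1 at Adr 1 d), a fit of only the compared groups (1 at Arrest 0.5 d), scaling by all fragments (1 at Arrest 1 d), leaving out a library (0 to 1 at Arrest 1 d) and the model without Adr 3 d replicate 3 (1, 3, 2 and 1 at Adr 0.5 d, Adr 1 d, Arrest 0.5 d and Arrest 1 d).

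In that second model 205 of 246 counts were within 1.5 times the value given. In both models the recomputed counts include the values as deposited, which differ from the main input only by the constant factor of 1.01. At Adr 0.5 d the count was 0 with quantile normalization, no filter, the replicate block or only the compared groups, and 0 to 1 over leave-outs. At Adr 1 d it was 0 without a filter, with the description number as covariate or with only the compared groups, 1 with the replicate block, 6 with the length trend removed and 1 to 3 over leave-outs. At Adr 3 d the covariate gave 1. At Arrest 0.5 d it was 0 with quantile normalization or no filter, 1 with quality weights or only the compared groups, and 1 to 2 over leave-outs. At Arrest 1 d it was 2 with quantile normalization or scaling by fragments outside the mitochondrial genome, 0 without a filter or with only the compared groups, 3 with a mean of at least 1 FPKM or the replicate block, 4 with quality weights, 6 with the length trend removed and 1 to 4 over leave-outs. The replicate numbers do not pair the libraries (1 of 48 same-number pairs had a correlation of deviations over 0.1, from -0.28 to 0.24).

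Of 1040 differences in shares and ratios, 1023 moved by less than the spread between libraries. This count cannot show that they are stable. Leaving a single library out of a small group shifts its mean by only part of that group's own spread. The mitochondrial share at Adr 3 d was 22.8% ± 9.01 with all libraries and 27.3% ± 1.14 without replicate 3, which did not count as moved. The other 17 came from averaging log2 values per gene in place of summing fragments, which gave the following values. The difference in rRNA to mRNA was -0.31, -0.12 and -0.088 (Adr 0.5 d, Adr 1 d, Arrest 0.5 d), the sign changing in the last 2. That in tRNA to mRNA was -0.18, -0.084, -0.059 and 0.19 (Adr 1 d, Arrest 0.5 d, 1 d and 7 d against Naïve) and -0.11 and -0.24 (Arrest against Adr at 0.5 and 3 days), the sign changing in all 6. That in mt-Nd6 to heavy-strand mRNA was -0.67, -0.59, -0.64 and -0.57, and that in mitochondrial to nuclear mRNA -0.23, -0.22, -0.090 and -0.38 (Adr 0.5 d, Adr 1 d, Arrest 0.5 d, Arrest 1 d), with the sign kept. The cause was not tested. The 6 lowest tRNA genes are limited by depth.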

Other observations

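In share of summed FPKM, which weights short genes more than a share of fragments does, the 37 mitochondrial genes took 49.8% ± 3.34 in Naïve hearts, 43.2% ± 2.59 at Adr 1 d and 45.5% ± 0.874 at Arrest 0.5 d, and neither of these groups overlapped with Naïve. The share of fragments on the 6 mRNAs inside the copied stretch was 0.118% ± 0.0224 in Naïve hearts, and all 16 Adr and Arrest libraries of 0.5 and 1 days lay above the Naïve range, at up to 0.607%. The 6 nuclear copies held 0.134% ± 0.0164 in Naïve hearts and 0.155% to 0.348% in the same 16.

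Across libraries, with group means subtracted, the mitochondrial share had r = 0.59 and rho = 0.20 with the share of the 81 nuclear respiratory genes over 37 libraries, and r = -0.05 and rho = -0.09 over 36 without Adr 3 d replicate 3. These share their library and scaling and are given as a description. The rRNAs and the abundant mRNAs had a median r of 0.70 over 37 libraries and of 0.20 over 36.

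Without Adr 3 d replicate 3, mt-Nd3 was 1.53 times the Naïve mean at Adr 3 d with all 3 libraries above the Naïve range, and mt-Tq at Arrest 3 d was 0.559 times its Adr 3-day mean with no overlap. Neither was called by limma.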
